A study of Mus musculus with 6 samples.

Results

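Endothelial cells line the vessels of the spinal cord, and their nuclei were picked from single-nucleus RNA libraries of the lumbar cord by the RNA they held. A nucleus was kept when it had at least 500 UMIs and under 5% of them from the mitochondrial genome, a UMI (unique molecular identifier) standing for 1 captured RNA molecule. It also had to hold UMIs of at least 3 of the 7 endothelial markers Cldn5, Flt1, Slco1a4, Ly6c1, Adgrl4, Pecam1 and Itm2a. It was left out when it held over 1 UMI of the mural genes Pdgfrb and Rgs5 together, of the neuronal genes Snap25 and Rbfox3 together, or of the myelin genes Mog, Mag and Mobp together. The rule found 346 nuclei among 42628, which is 0.812% of the nuclei that passed the UMI and mitochondrial limits. The 6 libraries came from frozen lumbar spinal cord of C57BL/6 mice aged 110 days, and the labels speak of littermate pairs. The mice of both groups carried SOD1G93A, a transgene for a mutant human superoxide dismutase that gives a model of amyotrophic lateral sclerosis, so no library came from a mouse without the transgene. The 3 PHD1-/- libraries were SOD1G93A/PHD1-/-, lacking the oxygen-sensing enzyme PHD1 that the gene Egln2 encodes, and the 3 PHD1+/+ libraries were SOD1G93A/PHD1+/+. The labels give the genotype only and do not say in which cells the gene was deleted, what sex the mice were, or which litter a library came from.

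Endothelial cells of the central nervous system form the barrier between blood and neural tissue: tight junctions seal the gaps between them, nutrient carriers bring glucose and amino acids in, and efflux pumps return drugs and lipophilic molecules to the blood. Wnt and Norrin signals from the surrounding tissue keep this programme on, and arteries, capillaries and veins each add genes of their own. PHD1 is one of the prolyl hydroxylases that use oxygen to mark the alpha subunits of hypoxia-inducible factors (HIF) for destruction, and endothelial cells are known for the HIF subunit made by Epas1.

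The nuclei were spread unevenly over the libraries. PHD1-/- replicates 1 to 3 gave 87, 8 and 38 endothelial nuclei, and PHD1+/+ replicates 1 to 3 gave 182, 23 and 8. Both replicate 1 libraries together held 269 of the 346 nuclei (77.7%) and 72.4% of their 407675 UMIs, and their first listed cell barcode began with AAACCTG, against AAACCCA in replicates 2 and 3. The summed endothelial counts were 104579, 9256 and 61052 UMIs in PHD1-/- and 190633, 34073 and 8082 UMIs in PHD1+/+ libraries. Levels are CPM, UMIs per 1000000 UMIs of the same nuclei, listed from replicate 1 to 3. A single UMI stood for 9.56, 108 and 16.4 CPM in PHD1-/- and for 5.25, 29.3 and 124 CPM in PHD1+/+ libraries. A value from PHD1-/- replicate 2 or PHD1+/+ replicate 3 therefore rests on few molecules. At most 86 cell barcodes (1.30% of the smaller library) were shared between any pair of libraries, the pair being the replicate 1 libraries, and at most 14 between any other pair. Xist had 130, 0 and 0 UMIs in the endothelial nuclei of the PHD1-/- libraries and 81, 0 and 0 UMIs in those of the PHD1+/+ libraries. The Y-linked gene Uty had 4, 2 and 15 UMIs in PHD1-/- and 23, 5 and 0 UMIs in PHD1+/+ libraries, so both replicate 1 libraries held transcripts of both kinds.

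**Figure D1:**
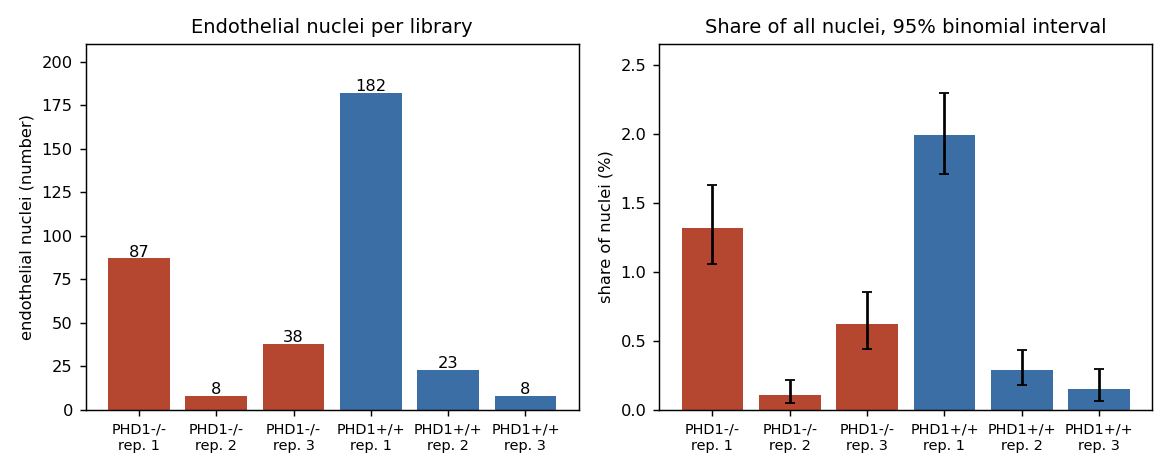
Number of endothelial nuclei (left) and their share of all nuclei in percent (right) in each library, with the 3 PHD1-/- libraries in red and the 3 PHD1+/+ libraries in blue; error bars are exact 95% binomial intervals, which cover counting error only. The replicate 1 library has the highest count and share in both genotypes (87 nuclei in PHD1-/- and 182 in PHD1+/+).

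The markers that chose the nuclei were, by that choice, high in them, and their values are a description. Flt1, the VEGF receptor 1, had UMIs in 85.8% of the endothelial nuclei and 0.639% of oligodendrocyte nuclei, and Slco1a4, an organic anion carrier of the barrier, in 85.5% and 0.398%. Cldn5, the main claudin of the barrier's tight junctions, was found in 76% of endothelial nuclei. Adgrl4, an adhesion receptor of sprouting vessels, was found in 60.7%, Itm2a in 59.2%, Ly6c1 in 51.2% and Pecam1, the junctional adhesion molecule CD31, in 35.8%. The 15330 oligodendrocyte nuclei held at least 3 of 8 myelin genes, at most 1 endothelial marker and at most 1 UMI of the neuronal genes, and the 230 mural nuclei held at least 3 of 7 mural genes with at most 1 endothelial marker and at most 1 UMI each of the neuronal and the myelin genes used above. Both were chosen by their RNA as well. Oligodendrocyte nuclei had UMIs of a marker in 0.189% (Adgrl4) to 2.07% (Itm2a) of nuclei. The median depth was 746 to 1358 UMIs per library in endothelial nuclei and 951 to 1920 UMIs in oligodendrocyte nuclei.

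The level at which the 3-marker limit was set can be read from the nuclei on its sides. The 85 nuclei with exactly 3 markers held a median of 4 of 21 further endothelial genes that the rule did not use, and the 129 nuclei with exactly 2 markers, which were left out, held a median of 1. At least 2 of the 21 genes were found in 82.4% of the nuclei with 3 markers and in 39.5% of those with 2 markers. Of all 346 nuclei, 313 (90.5%) held at least 2 of the 21 genes, as did 46 of 230 mural nuclei and 0.724% of oligodendrocyte nuclei, and 17 of the 346 held none. Of the 759 nuclei with at least 3 markers, 154 went over the limit for mural genes, 260 over that for neuronal genes and 249 over that for myelin genes, with overlap between them.

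RNA of other cells remained in some members and differed between libraries. The 12 oligodendrocyte genes summed to 2448, 3349 and 1474 CPM in PHD1-/- and 4280.5, 1790.3 and 2351 CPM in PHD1+/+ libraries, and the 10 astrocyte genes to 775, 432 and 197 CPM in PHD1-/- and 1873, 528 and 989.9 CPM in PHD1+/+ libraries. The 12 neuron genes summed to 2075, 540.2 and 721 CPM in PHD1-/- and 3001, 822 and 2227 CPM in PHD1+/+ libraries, and the 12 microglia and macrophage genes to 430.3, 432 and 197 CPM in PHD1-/- and 829, 2259.8 and 619 CPM in PHD1+/+ libraries. PHD1+/+ replicate 1 stood highest for the oligodendrocyte, astrocyte and neuron lists and PHD1+/+ replicate 2 for the microglia list. The 12 mural genes, with Pdgfrb at 3, 0 and 1 UMIs in the PHD1-/- libraries and 4, 1 and 1 UMIs in the PHD1+/+ libraries, summed to 268, 0 and 295 CPM in PHD1-/- and 656, 117 and 742 CPM in PHD1+/+ libraries, against 12159 CPM over the mural nuclei of all libraries. The 10 fibroblast genes summed to 239, 0 and 147 CPM in PHD1-/- and 299, 58.7 and 0 CPM in PHD1+/+ libraries, and the lymphatic marker Lyve1 had 0 UMIs in all 6 libraries. Over 1 UMI of the astrocyte genes Aqp4, Gja1 and Slc1a3 was held by 25 members, over 1 UMI of 4 immune genes by 14 and over 1 UMI of 3 fibroblast genes by 10, and 301 members were left when these were removed. None of the 346 nuclei (0) was among the top 1% of its library by UMIs, and no doublet caller was run.

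Red blood cell and cytoplasmic transcripts moved with the replicate number. The 5 red blood cell genes summed to 7353, 2053 and 1196 CPM in PHD1-/- and 5240.4, 235 and 1979.7 CPM in PHD1+/+ libraries. The 30 ribosomal protein genes summed to 23198, 10048 and 8239 CPM in PHD1-/- and 20054, 11152 and 10394 CPM in PHD1+/+ libraries, and the 13 mitochondrial genome transcripts to 8415, 5186 and 4783 CPM in PHD1-/- and 12348, 5019 and 6682 CPM in PHD1+/+ libraries. All 3 sums were higher in replicate 1 than in replicates 2 and 3 of the same genotype.

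**Figure D2:**
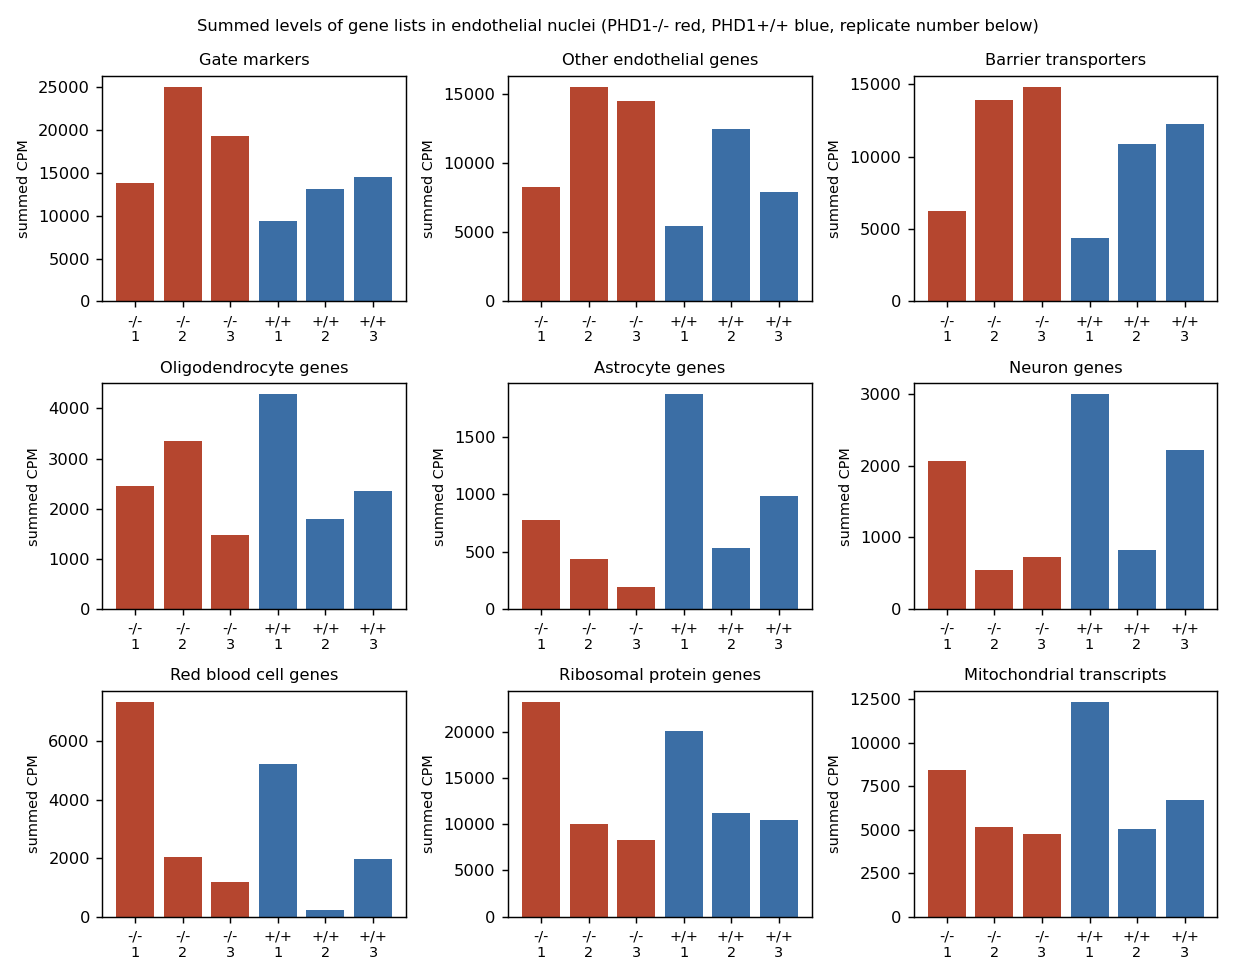
Summed levels (CPM, linear axes from 0, a scale of its own in each panel) of 9 gene lists in the endothelial nuclei of each library, PHD1-/- in red on the left and PHD1+/+ in blue on the right of each panel. Ribosomal protein, mitochondrial and red blood cell transcripts are highest in the replicate 1 libraries, and the barrier transporter sums are lowest there (6244 CPM in PHD1-/- and 4401 CPM in PHD1+/+).

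The genes that set the endothelial nuclei furthest apart from all other nuclei were ranked by the median over libraries of the log2 ratio of CPM, with 10 CPM added, among 3162 genes with at least 30 endothelial UMIs, gate genes left out. The first 20 were Abcb1a, Lef1, Mecom, Ptprb, Slco1c1, Adgrf5, Nostrin, Hmcn1, Abcg2, Cyyr1, Paqr5, Ccdc141, Emcn, Slc2a1, Atp10a, Pltp, Zfp366, Eng, Ly6a and Apcdd1. The nuclei were chosen by their RNA, so this order is a description and carries no test. Carriers and pumps of the barrier, transcription factors, and surface receptors of the vessel wall stood among them. All 20 were higher in the endothelial nuclei than in all other nuclei in 6 of 6 libraries.

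**Figure D3:**
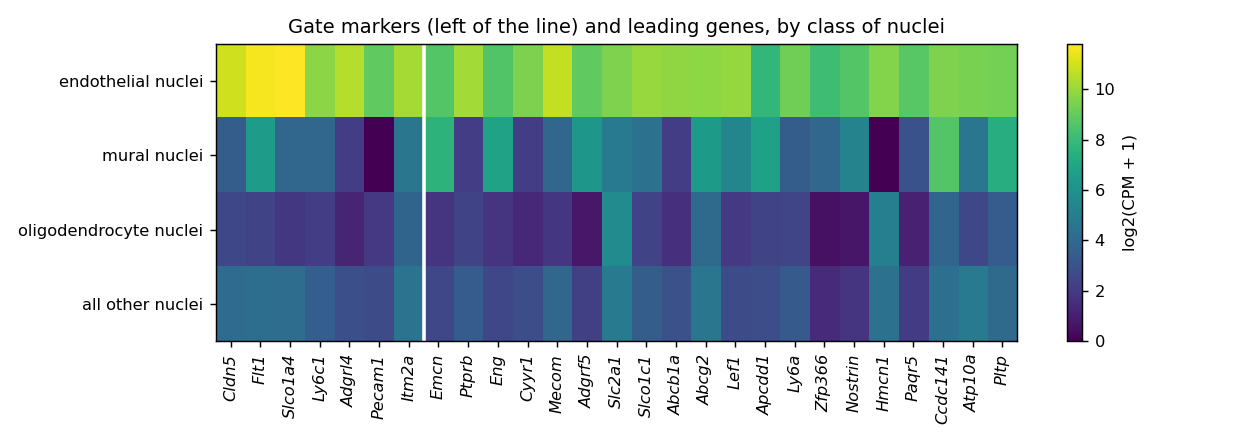
Levels, as log2(CPM + 1) in colour, of the 7 gate markers (left of the white line) and the 20 leading genes in 4 classes of nuclei pooled over the 6 libraries: endothelial, mural, oligodendrocyte and all other nuclei. All 27 genes are highest in the endothelial row; Ccdc141 (396 CPM), Emcn (199 CPM) and Pltp (162 CPM) are the leading genes with the highest levels in mural nuclei.

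Among the carriers, Abcb1a, which makes the drug efflux pump P-glycoprotein, had 905 CPM in endothelial nuclei and 6.69 CPM in all other nuclei. Its library values were 708, 1621 and 1900.0 CPM in PHD1-/- and 446, 1819.6 and 2103 CPM in PHD1+/+ libraries. Abcg2, a second efflux pump, had 564, 1837 and 1638 CPM in PHD1-/- and 650.5, 1379 and 1485 CPM in PHD1+/+ libraries. The 2 replicate 1 libraries were the lowest for both pumps in each genotype. Slco1c1, the carrier of thyroid hormone, had 1013 CPM in endothelial nuclei and 10.3 CPM in all other nuclei. By library it had 832, 1621 and 2342 CPM in PHD1-/- and 650.5, 880.5 and 1732 CPM in PHD1+/+ libraries. Slc2a1, the glucose transporter GLUT1 and a known HIF target, had 726 CPM in endothelial nuclei and 27.4 CPM in all other nuclei. By library it had 602, 1296 and 1719.8 CPM in PHD1-/- and 357, 1057 and 1485 CPM in PHD1+/+ libraries. In CPM the libraries of the 2 genotypes overlapped for every one of these carriers. Slc2a1 had UMIs in 43.1% of endothelial nuclei and 7.98% of oligodendrocyte nuclei. For Abcb1a these shares were 50.9% and 0.313%, so Slc2a1 was found in more of the oligodendrocyte nuclei.

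The transcription factor genes among the leading 20 were Lef1, Mecom and Zfp366. Lef1, the nuclear partner of beta-catenin in Wnt signalling, had 991 CPM in endothelial nuclei, 41.3 CPM in mural nuclei and 5.72 CPM in all other nuclei. The library values were 736, 1729 and 2031 CPM in PHD1-/- and 582, 1937 and 1237 CPM in PHD1+/+ libraries. Mecom, a zinc finger factor known from arterial endothelium and blood stem cells, had 1668 CPM in endothelial nuclei and 13.9 CPM in all other nuclei. The library values were 1453, 2917 and 2981 CPM in PHD1-/- and 1102, 2876 and 1361 CPM in PHD1+/+ libraries. Zfp366 had 277 and 1.63 CPM. Of the surface proteins, Ptprb, the phosphatase that restrains the angiopoietin receptor Tie2, had 1195, 2053 and 2424 CPM in PHD1-/- and 456, 2524 and 989.9 CPM in PHD1+/+ libraries, and all other nuclei had 9.68 CPM. Eng, a co-receptor for BMP and TGF-beta ligands, had 383 CPM in endothelial nuclei, 110.1 CPM in mural nuclei and 4.68 CPM in all other nuclei. Emcn, a sialomucin of capillaries and veins, had 395 CPM in endothelial nuclei and 199 CPM in mural nuclei, so that it set these vascular classes apart less than Ptprb, which had 3.44 CPM in mural nuclei. Nostrin, which moves the endothelial nitric oxide synthase within the cell, had 402 CPM in endothelial nuclei and 2.59 CPM in all other nuclei, and Apcdd1, a Wnt inhibitor and target, had 226 and 5.83 CPM.

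The stretch before the transcription start is shown for 3 of these genes, 1 marker and receptor (Flt1), 1 carrier (Slc2a1) and 1 surface mucin (Emcn), because they stand for the gate, the barrier and the vessel wall and because Flt1 and Slc2a1 are known HIF targets. Each sequence is the 250 bases before the start in RefSeq's GRCm38.p6 table, read 5′ to 3′ on the gene's strand, at chr5:147726012-147726261 on the minus strand for Flt1, chr4:119108495-119108744 on the plus strand for Slc2a1 and chr3:137340828-137341077 on the plus strand for Emcn. Capitals mark the letters searched for on both strands: the ETS motif as CCGGAAG or CAGGAAG, the SOX motif as AACAAT, and the core of the hypoxia response element as ACGTG or GCGTG.
Flt1: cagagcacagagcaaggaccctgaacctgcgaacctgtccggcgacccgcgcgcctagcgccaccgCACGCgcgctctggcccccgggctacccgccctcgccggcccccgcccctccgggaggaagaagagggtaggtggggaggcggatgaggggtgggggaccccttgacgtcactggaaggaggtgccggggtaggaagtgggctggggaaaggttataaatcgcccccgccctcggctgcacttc
Slc2a1: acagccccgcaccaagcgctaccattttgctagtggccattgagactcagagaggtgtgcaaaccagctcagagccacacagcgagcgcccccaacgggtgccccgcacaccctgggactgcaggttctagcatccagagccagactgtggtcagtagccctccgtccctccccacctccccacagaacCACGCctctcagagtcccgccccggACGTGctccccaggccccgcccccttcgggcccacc
Emcn: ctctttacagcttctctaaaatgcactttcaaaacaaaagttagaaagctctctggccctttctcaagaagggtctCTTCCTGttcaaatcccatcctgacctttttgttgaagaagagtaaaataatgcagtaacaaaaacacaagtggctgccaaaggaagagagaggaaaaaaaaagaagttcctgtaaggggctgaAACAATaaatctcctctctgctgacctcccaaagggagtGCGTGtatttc

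The hypoxia core letters stand 184 bases before the start of Flt1 as CACGC, the other strand's reading, and 61 and 36 bases before the start of Slc2a1 as CACGC and ACGTG, each counted to the motif's first base. The window of Emcn holds the ETS letters 174, the SOX letters 50 and the hypoxia core letters 11 bases before its start. Of the 27 gate markers and leading genes, 22 were in the table. Among these 22, the ETS letters were found in 4 (18.2%), the SOX letters in 3 (13.6%) and the hypoxia core letters in 5 (22.7%), against 17.0%, 9.42% and 38.6% of all 32851 windows of this length. A match names letters only, and binding was not measured in these libraries.

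The wider barrier programme was present. For the counts that follow, 56.0% of the 15873 genes with an endothelial UMI were higher in endothelial nuclei than in all other nuclei when libraries were pooled, and 5.58% were higher in each of the 6 libraries; among the 3173 genes with at least 30 such UMIs the shares were 67.1% and 24.5%. Lists of cytoplasmic and of other cells' transcripts were higher too. All 30 ribosomal protein genes, summing to 17928 CPM against 3274 CPM in all other nuclei, and all 13 mitochondrial transcripts, with 9319 against 2249 CPM, were higher when pooled, and 26 and 7 of them in each of the 6 libraries. Pooled, 11 of 12 mural, 8 of 10 astrocyte, 8 of 10 fibroblast and 9 of 12 microglia genes were higher, and 0 of these in each of the 6 libraries. All 21 barrier transporters on the list had UMIs in endothelial nuclei, 20 were higher there than in all other nuclei when libraries were pooled, and 17 were higher in each of the 6 libraries. Their summed level was 7354 CPM in endothelial nuclei, 801 CPM in mural nuclei, 673 CPM in oligodendrocyte nuclei and 681 CPM in all other nuclei. By library the sum was 6244, 13937 and 14856 CPM in PHD1-/- and 4401, 10888 and 12249 CPM in PHD1+/+ libraries. Slc6a6, the taurine carrier, had 612, 972 and 1278 CPM in PHD1-/- and 278, 675 and 742 CPM in PHD1+/+ libraries. Slc7a5, the light chain of the large neutral amino acid carrier, had 316, 324 and 704 CPM in PHD1-/- and 283, 440.2 and 619 CPM in PHD1+/+ libraries. Tfrc, the transferrin receptor that brings iron across, had 153, 756 and 459 CPM in PHD1-/- and 62.9, 616 and 247 CPM in PHD1+/+ libraries. Mfsd2a, the lipid carrier of barrier capillaries, had 3, 2 and 11 UMIs in PHD1-/- and 8, 4 and 1 UMIs in PHD1+/+ libraries. Both were detected in all 6 libraries.

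**Figure D4:**
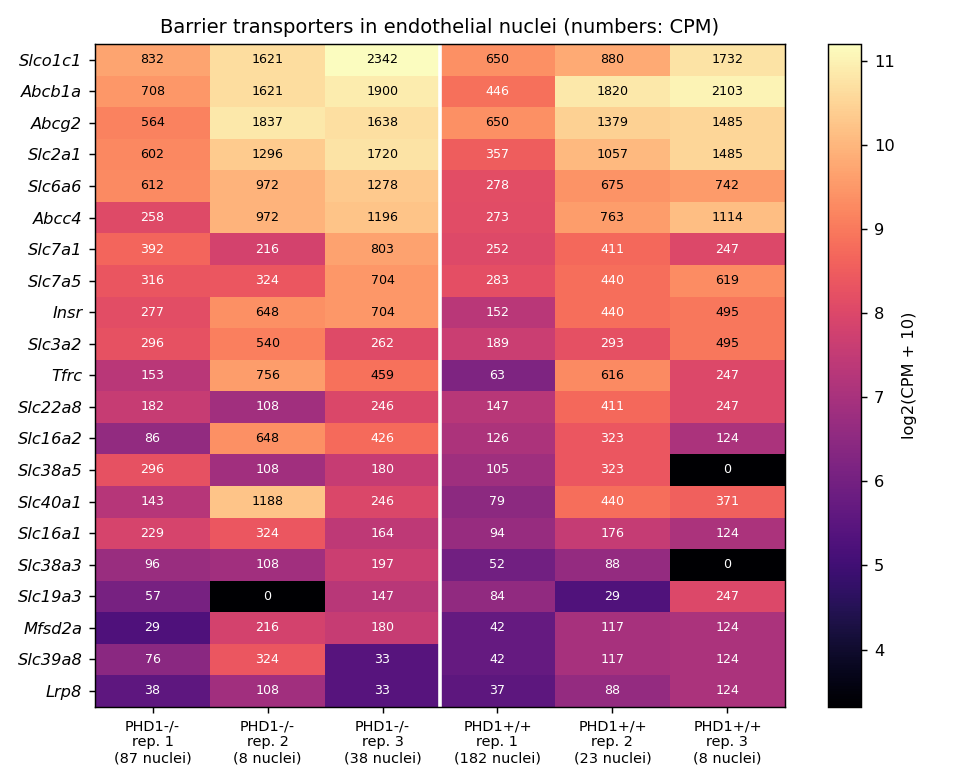
Levels of the 21 barrier transporters in the endothelial nuclei of each library, PHD1-/- on the left and PHD1+/+ on the right of the white line, as log2(CPM + 10) in colour with the CPM printed in each cell and the number of nuclei under each library. The efflux pumps and Slc2a1 are lower in the replicate 1 column than in the other columns of the same genotype, and zeros stand only in the libraries with 8 nuclei.

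Junction genes were shared more widely. Of 17 genes of tight and adherens junctions, 14 were higher in the endothelial nuclei than in all other nuclei and 11 in each of the 6 libraries. Esam, an endothelial cell adhesion molecule, had 297 CPM in endothelial nuclei and 3.71 CPM in all other nuclei. Tjp1, the scaffold ZO-1, had 1410.4 and 397 CPM, and the polarity gene Pard3 351 and 233 CPM. Magi1, a junction scaffold, was lower in the endothelial nuclei, with 343 CPM, than in all other nuclei, with 503 CPM.

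Of 22 Wnt and Norrin genes, 21 had UMIs. When pooled, 20 were higher in the endothelial nuclei than in all other nuclei, and 11 (52.4%) were in each of the 6 libraries. The receptor gene Fzd6 had 213 CPM in endothelial nuclei, 165 CPM in mural nuclei and 2.91 CPM in all other nuclei. Znrf3, which removes Wnt receptors from the surface, had 169 CPM in endothelial and 78 CPM in all other nuclei. Of 21 genes of VEGF signalling and angiogenesis, 18 had UMIs. When pooled, 15 were higher in the endothelial nuclei, and 5 (27.8%) were in each of the 6 libraries. That share was 5.58% over all genes with an endothelial UMI and 24.5% over those with at least 30. Kdr, the VEGF receptor 2, had 105, 756 and 311 CPM in PHD1-/- and 68.2, 235 and 124 CPM in PHD1+/+ libraries, and all other nuclei had 1.48 CPM. Its co-receptor gene Nrp1 had 243 CPM in endothelial nuclei and 137 CPM in all other nuclei, and Pdgfb, the ligand that recruits pericytes, had 139.8 and 5.94 CPM. Plvap, the diaphragm protein of leaky vessels, had a single UMI (1) in 346 nuclei. All 26 genes of Tie, Notch, ephrin and BMP signalling had UMIs. When pooled, 23 were higher in the endothelial nuclei, and 11 (42.3%) were in each of the 6 libraries. The angiopoietin receptor Tek had 469 CPM, against 27.6 CPM in all other nuclei. The BMP receptor Bmpr2 had 547 CPM, against 160.4 CPM, and the BMP target Id3 had 510.2 CPM, against 18.2 CPM.

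Cav1, the coat protein of caveolae, had 204 CPM in endothelial nuclei and 7.51 CPM in all other nuclei. Of 14 genes of caveolae and transcytosis, 12 were higher in the endothelial nuclei when pooled and 5 (35.7%) in each of the 6 libraries. Of 22 basement membrane genes and their receptors, 19 were higher in the endothelial nuclei than in all other nuclei when pooled, and 9 (40.9%) in each of the 6 libraries. Only 8 were higher than in mural nuclei. Itga1, a collagen receptor subunit, had 356 CPM in endothelial and 729 CPM in mural nuclei. All 25 endothelial transcription factors had UMIs and were higher than in all other nuclei when pooled, and 13 (52%) were in each of the 6 libraries. Among the 25 were the ETS factor Fli1 with 564 CPM, against 25.3 CPM, and the flow-responsive factor Klf2 with 491 CPM, against 5.46 CPM. All 49 measured genes of the interferon response and antigen presentation were higher in the endothelial nuclei when libraries were pooled, and 10 of them (20.4%) in each of the 6 libraries, while the ribosomal and mitochondrial lists were higher throughout as well; the part of cytoplasmic RNA in this count was not tested. Ly6e had 863 CPM in endothelial nuclei and 42.4 CPM in all other nuclei. Ifitm3, an antiviral membrane protein, had 599 and 23.7 CPM, and B2m, the light chain of MHC class I, had 832 and 61.2 CPM. By library B2m had 1606, 108 and 442 CPM in PHD1-/- and 682, 323 and 247 CPM in PHD1+/+ libraries. Ifitm3 had 918, 108 and 311 CPM in PHD1-/- and 629, 205 and 124 CPM in PHD1+/+ libraries, so both were highest in replicate 1 of each genotype, as were the ribosomal protein genes. Of 23 activation genes, 20 had UMIs. Il6st, the shared receptor of the interleukin-6 family, had 177 CPM in endothelial and 44.4 CPM in all other nuclei, and Vcam1, a leukocyte adhesion molecule, had 35, 0 and 24 UMIs in PHD1-/- and 18, 10 and 1 UMIs in PHD1+/+ libraries.

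Epas1 set the oxygen-sensing genes of the endothelium apart from those of the other nuclei. It had 500.4 CPM in endothelial nuclei, 186 CPM in mural nuclei and 11.2 CPM in all other nuclei. The library values were 497, 432 and 1048 CPM in PHD1-/- and 283, 792 and 371 CPM in PHD1+/+ libraries. Hif1a, the other widespread HIF alpha subunit, had 113 CPM in endothelial nuclei and 57.9 CPM in all other nuclei, so the ratio was smaller than for Epas1. Of the 11 oxygen-sensing genes, 5 were higher in the endothelial nuclei and 1 in each of the 6 libraries. Egln3, another HIF prolyl hydroxylase gene, had 0 UMIs in the 346 nuclei, which allows up to 3 UMIs, and Egln1, the main HIF prolyl hydroxylase gene, had 34.3 CPM in endothelial nuclei and 36.3 CPM in all other nuclei. Of 38 HIF target and glycolysis genes, 36 had UMIs, 27 (75%) were higher in the endothelial nuclei when pooled and 4 in each of the 6 libraries. The pooled share was no larger than that of the astrocyte, fibroblast, microglia and mural lists. Among the 27 was Ldha, lactate dehydrogenase A, with 115 CPM, against 17.3 CPM. Vegfa, the ligand that endothelial cells answer, was lower in the endothelial nuclei, with 5 UMIs and 12.3 CPM, than in all other nuclei, with 31.6 CPM.

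The members differed among themselves in the genes of vessel segments. UMIs of at least 2 of 12 arterial genes were found in 69 of 346 nuclei (19.9%, exact 95% binomial interval 15.9 to 24.5%), of at least 2 of 8 capillary genes in 152 (43.9%, 38.6 to 49.3%) and of at least 2 of 13 venous genes in 111 (32.1%, 27.2 to 37.3%). These intervals cover counting error only and not the spread between libraries. Without PHD1+/+ replicate 1 the shares were 27.4% arterial, 58.5% capillary and 42.1% venous, each above its interval. Both arterial and venous genes passed in 30 nuclei (8.67%), of which 19 came from PHD1-/- replicate 1. Without that library it was 11 of 259 nuclei (4.25%), and without PHD1+/+ replicate 1 it was 26 of 164 (15.9%). None of the 3 lists passed in 100 nuclei (28.9%), and in 23 of 164 (14.0%) without PHD1+/+ replicate 1. In oligodendrocyte nuclei, which should lack them, the shares were 1.68%, 2.85% and 1.68%. When the 147 nuclei with at least 1000 UMIs were thinned to 1000 UMIs each, which left out 199, the shares were 17.0% arterial, 40.8% capillary and 38.1% venous, against 0.480%, 0.960% and 0.743% of oligodendrocyte nuclei. A share of nuclei depends on depth, and a nucleus under the limit is not shown to lack the segment's genes.

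The capillary genes passed in 34 of 87, 8 of 8 and 31 of 38 nuclei in the PHD1-/- libraries and in 56 of 182, 16 of 23 and 7 of 8 nuclei in the PHD1+/+ libraries. The arterial genes passed in 29, 1 and 8 nuclei of the PHD1-/- libraries and in 24, 4 and 3 nuclei of the PHD1+/+ libraries. The venous genes passed in 39, 3 and 14 nuclei of the PHD1-/- libraries and in 42, 12 and 1 nuclei of the PHD1+/+ libraries. The 2 replicate 1 libraries had the lowest capillary share in both genotypes, and PHD1+/+ replicate 1 had 77 of 182 nuclei under the limit of all 3 lists. Vwf, the clotting factor stored by venous and larger-vessel endothelium, had UMIs in 92 nuclei. Il1r1, the interleukin-1 receptor, was found in 33 of the 92 Vwf-positive nuclei and in 22 of the 254 others. Mgp, a matrix protein of larger arteries, was found in 45 nuclei, namely in 26 of the 92 Vwf-positive nuclei and in 19 of the 254 others. Venous and arterial genes were thus found together as well. The arterial gene Gkn3 was found in 31.1% of the nuclei with Mgp and in 7.97% of those without. Slco1a4 was found in 90.2% of the Vwf-positive nuclei and in 83.9% of the others. Vwf was found in 31.5% of the nuclei with Slc2a1 and 22.8% of those without, in 33.5% of the nuclei with Abcb1a and 19.4% of those without, and in 33.3% of the nuclei with Lef1 and 20% of those without. For Slco1c1 the order was the other way, with 21.7% of the 180 nuclei that held it and 31.9% of the others. These shares describe cells pooled over libraries of unequal size and depth.

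The targeted gene was measured first across all nuclei of each library. Egln2 (GRCm38 chr7:27158658-27166802, minus strand) had 9.65, 8.97 and 10.1 CPM over all nuclei of the PHD1-/- libraries and 29.6, 18.6 and 16.3 CPM over all nuclei of the PHD1+/+ libraries, so the groups did not overlap. Within the endothelial nuclei it had 0, 0 and 1 UMIs in the PHD1-/- libraries and 10, 0 and 0 UMIs in the PHD1+/+ libraries. The means were 5.46 ± 9.46 CPM in PHD1-/- and 17.5 ± 30.3 CPM in PHD1+/+ libraries (n = 3 per genotype, SD). A two-sided exact permutation test gave p = 1. The smallest p that 3 against 3 libraries allow is 0.10, but the tied values of 0 put it out of reach here. The test could therefore not have found a difference. The difference was not detectable at this depth: 3 UMIs, the limit that a count of 0 allows, stand for 28.7 CPM in PHD1-/- replicate 1 and 324 CPM in PHD1-/- replicate 2. All 10 UMIs of the PHD1+/+ nuclei came from replicate 1, and without that library the difference turned to 5.46 CPM higher in PHD1-/-.

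The endothelial share of nuclei did not differ between the genotypes beyond the spread of the libraries. It was 1.32, 0.108 and 0.622% in the PHD1-/- libraries and 1.99, 0.287 and 0.149% in the PHD1+/+ libraries. The means were 0.684 ± 0.609% in PHD1-/- and 0.808 ± 1.02% in PHD1+/+ libraries (n = 3 per genotype, SD), and a two-sided exact permutation test gave p = 0.80. Within same-numbered pairs the share was lower in PHD1-/- in 2 of 3 pairs, with an exact p of 0.75, where 0.25 is the smallest possible. Replicate 1 was high and PHD1-/- replicate 2 and PHD1+/+ replicate 3 were low, so the groups overlapped over nearly their whole range. Without PHD1-/- replicate 2, without PHD1+/+ replicate 1 or over replicates 2 and 3 alone, the difference turned to 0.163, 0.465 and 0.147 percentage points higher in PHD1-/-.

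Gene by gene, no difference between the genotypes passed the test in endothelial nuclei. UMIs were summed per library and 978 genes with enough counts were tested with edgeR's quasi-likelihood test. In this test 0 genes were called at a Benjamini-Hochberg adjusted p under 0.05 (0.0% of those tested), and 0 had an unadjusted p under 0.05. The numbers from DESeq2 were likewise 0 and 0. With the replicate number as a block, edgeR called 0 genes, and 53 (5.42%) had an unadjusted p under 0.05. Each standard error (SE) given for a fold change was worked back from edgeR's test, as the absolute log2 fold change over the square root of its F statistic. Its median was 0.58, and it ran from 0.27 to 72.2. The median fold change was -0.07, with 434 genes positive and 544 negative. The smallest adjusted p of edgeR's test was 1.00, so each gene named next is given by its values and was not called.

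**Figure D5:**
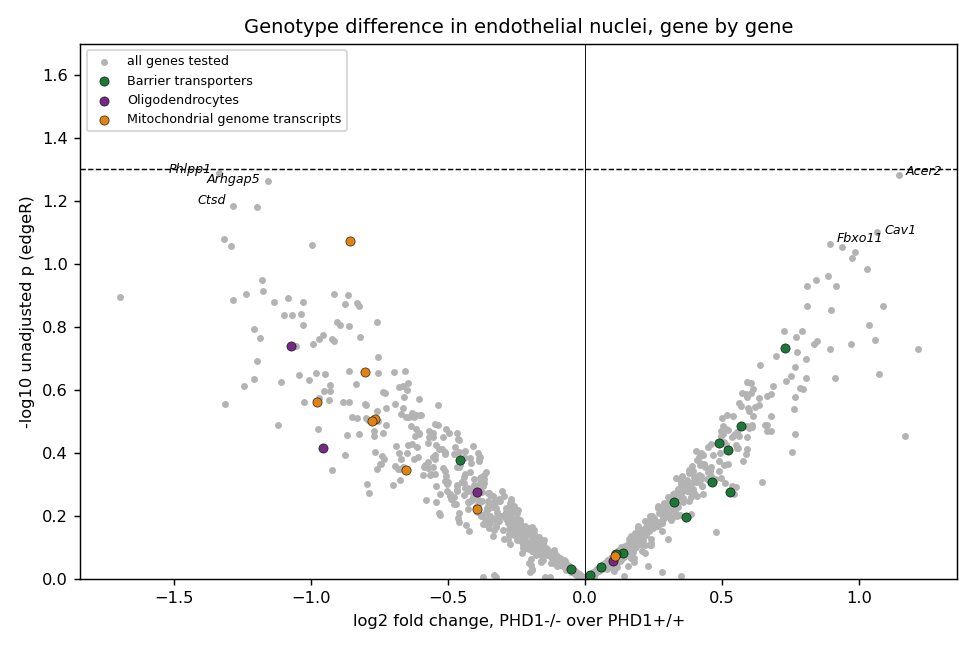
Log2 fold change (PHD1-/- over PHD1+/+, x axis) and -log10 of edgeR's p before adjustment (y axis) for the 978 genes tested in endothelial nuclei; the dashed line marks 0.05, and coloured points are barrier transporters, oligodendrocyte genes and mitochondrial genome transcripts. No gene lies above the line; 12 of the 14 barrier transporters lie right of 0, and 7 of the 8 mitochondrial transcripts lie left of it.

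The 10 genes with the smallest p on the positive side were Acer2, Cav1, Fbxo11, Samd12, Phactr4, Eng, Ly6a, Arhgef3, Bsg and Pir, with log2 fold changes of 0.81 to 1.14. Bsg, the immunoglobulin-family protein basigin that is abundant at the barrier and chaperones lactate carriers, had 5078, 6590.3 and 4226 CPM in PHD1-/- and 2397, 2876 and 2722 CPM in PHD1+/+ libraries. Every PHD1-/- library lay above every PHD1+/+ library for Bsg, and its log2 fold change was 0.84 ± 0.48 (SE). Ly6a, the surface antigen Sca-1 and an interferon-responsive gene, had 1004, 972 and 688 CPM in PHD1-/- and 409, 264 and 495 CPM in PHD1+/+ libraries. These did not overlap either, and the log2 fold change was 1.03 ± 0.58. Cav1 had 287, 324 and 344 CPM in PHD1-/- and 131, 58.7 and 247 CPM in PHD1+/+ libraries. Acer2, an alkaline ceramidase, had 306, 540.2 and 639 CPM in PHD1-/- and 163, 235 and 124 CPM in PHD1+/+ libraries. Their log2 fold changes were 1.06 ± 0.55 and 1.14 ± 0.52. The PHD1-/- libraries lay above the PHD1+/+ libraries for both, also for Samd12 and Fbxo11. For Eng they overlapped in CPM, with 411, 1188 and 737 CPM in PHD1-/- and 199, 469.6 and 371 CPM in PHD1+/+ libraries. Over all genes tested, every PHD1-/- library lay above every PHD1+/+ library for 24 of 978 (2.45%) and below for 6 (0.613%). The named genes were picked by their p, so their 6 and 1 are part of these. Whether libraries overlapped was read throughout from CPM without edgeR's TMM normalization factors, which the fold changes use. The factors ran from 0.714 in PHD1+/+ replicate 1 to 1.21 in PHD1+/+ replicate 3. On the scale of the fit some genes can therefore differ in overlap, and this was not counted.

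The 10 genes with the smallest p on the negative side were Phlpp1, Arhgap5, Ctsd, Npepps, Phactr1, mt-Nd2, Mkln1, Psmd7, Vcl and Ldhb, with log2 fold changes of -0.86 to -1.33. Phlpp1, a phosphatase that dephosphorylates Akt, had 95.6, 0 and 213 CPM in PHD1-/- and 189, 323 and 619 CPM in PHD1+/+ libraries, a log2 fold change of -1.33 ± 0.60. Ctsd, the lysosomal protease cathepsin D, had 201, 0 and 147 CPM in PHD1-/- and 257, 558 and 247 CPM in PHD1+/+ libraries. Its log2 fold change was -1.28 ± 0.62. It was the 1 gene of the 10 whose libraries did not overlap in CPM, a scale without the TMM factors behind the fold change. Ldhb, lactate dehydrogenase B, had 172, 216 and 49.1 CPM in PHD1-/- and 325, 147 and 247 CPM in PHD1+/+ libraries, with a log2 fold change of -1.17 ± 0.69, and the highest value came from PHD1+/+ replicate 1.

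The lists of endothelial genes had mostly positive fold changes, none of them called. Of the 19 lists with at least 4 genes tested, 14 had a median whose sign turned under at least 1 of the alternative settings or left-out libraries. Each setting took its median over the members that passed the filter there, so the genes behind a median can change. Of the 14 barrier transporters tested, 12 were positive and 2 negative, and their median was 0.35 on the log2 scale. In CPM, without the TMM factors behind these fold changes, the libraries of the genotypes overlapped for all 14. Slc6a6 had a log2 fold change of 0.73 ± 0.51, Slco1c1 of 0.49 ± 0.52, Slc2a1 of 0.32 ± 0.55 and Abcb1a of -0.05 ± 0.56. All 7 gate markers were positive with a median of 0.55, which the gate itself can set, and 13 of 14 further endothelial identity genes were positive with a median of 0.40. Without PHD1+/+ replicate 1 the median of the barrier transporters was 0.05, and without PHD1+/+ replicate 2 it was 0.68. PHD1+/+ replicate 1, the library with the most endothelial nuclei, had the lowest sums of all 3 lists and the highest astrocyte, neuron and oligodendrocyte sums given above. The gate markers summed to 13759.9, 25065 and 19262 CPM in PHD1-/- and 9379, 13148 and 14477 CPM in PHD1+/+ libraries. The part of other cells' RNA in these medians was not tested.

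Junction genes were positive in 8 of 9 tested with a median of 0.26, Wnt and Norrin genes in 4 of 5 with 0.33, VEGF and angiogenesis genes in 3 of 4 with 0.44, and Tie, Notch, ephrin and BMP genes in 7 of 8 with 0.27. Ocln, the junction protein occludin, had a log2 fold change of 0.59 ± 0.47 and Lef1 of 0.15 ± 0.53. Kdr had a log2 fold change of 0.97 ± 0.67 and Tek of 0.38 ± 0.50. Caveolae and transcytosis genes were positive in 4 of 5 with a median of 0.46, basement membrane genes in 5 of 7 with 0.37, and endothelial transcription factors in 7 of 10 with 0.24. Sparc, a matrix glycoprotein, had 382, 324 and 344 CPM in PHD1-/- and 734, 440.2 and 495 CPM in PHD1+/+ libraries. It was the basement membrane gene among the 6 of all 978 genes tested (0.613%) whose PHD1-/- libraries all lay below the PHD1+/+ libraries in CPM. Its log2 fold change, which uses the TMM factors, was -0.91 ± 0.59. Of the segment lists, 2 of 2 arterial, 4 of 5 capillary and 3 of 4 venous genes tested were positive, and 2 of 3 genes of vascular tone and coagulation. Mgp had a log2 fold change of 1.07 ± 0.83, Cxcl12, a chemokine of capillary and arterial endothelium, of 0.89 ± 0.63 and Vwf of 0.54 ± 0.85.

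All 7 interferon and antigen presentation genes tested were positive, with a median of 0.21, and 0 were called. Their fold changes were largest for Ly6a and smallest for Sp100, a nuclear body protein, with 0.11 ± 0.52, and B2m, with 0.65 ± 0.91, was highest in PHD1-/- replicate 1. Without PHD1-/- replicate 1 the median over the list members tested then, which can differ from these 7, was -0.65. Its sign thus turned when that library was left out. Activation genes were positive in 3 of 5, with a median of 0.08; the transcription factor gene Nfkb1 had -1.03 ± 0.63 and Vcam1 0.76 ± 0.68.

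Of the oxygen-sensing genes only Epas1 had the counts to be tested, with a log2 fold change of 0.38 ± 0.57. Of the 4 HIF target and glycolysis genes tested, Slc2a1 was positive and Aldoa, Pkm and Ndrg1 were negative, with a median of -0.36, and 0 were called. Aldoa, the glycolytic aldolase, had 277, 108 and 98.3 CPM in PHD1-/- and 572, 147 and 371 CPM in PHD1+/+ libraries, with a log2 fold change of -1.28 ± 0.78, and Pkm, pyruvate kinase, had a log2 fold change of -0.57 ± 0.61. The highest Aldoa level came from PHD1+/+ replicate 1. Over replicates 2 and 3 alone, where 305 genes passed the filter in place of 978, the median of the list's tested members was 0.22. Beyond the 4 genes above, the list had too few UMIs for the test.

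Lists of oligodendrocyte, neuron and RNA quality genes lay on the other side, and the 4 red blood cell genes, with a median of 0.33, did not. The 4 oligodendrocyte genes tested had a median of -0.67, with 3 negative and 1 positive, Mal (log2 fold change 0.10 ± 0.46). The libraries of Mal lay at 268, 324 and 311 CPM in PHD1-/- and at 231, 235 and 247 CPM in PHD1+/+. They did not overlap in CPM without TMM factors, as for 24 of all 978 genes tested (2.45%) in that direction. The medians were -1.08 for the 2 neuron genes and -0.77 for the 8 mitochondrial transcripts, with 7 of the 8 negative. In turn 24 of 29 ribosomal protein genes were negative, with a median of -0.18. Without PHD1+/+ replicate 1 the median was 0.50 for the oligodendrocyte genes, 0.38 for the mitochondrial transcripts and 0.63 for the ribosomal protein genes. These medians cover the members that passed the filter without that library, where 779 genes were tested in place of 978. The 0.50 equals the highest fold change of Mal alone when a library was left out. It need not describe the 4 oligodendrocyte genes above.

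Whether a genotype difference was larger or smaller in endothelial nuclei than in all other nuclei of the same libraries was tested by an interaction term with the library as a block. Of 16699 genes tested, 1769 of which had no endothelial UMI, edgeR's quasi-likelihood test called 0 (0.0%) at an adjusted p under 0.05 and found 676 (4.05%) with an unadjusted p under 0.05; the smallest adjusted p was 0.931. With DESeq2 0 were called and 85 (0.509%) had an unadjusted p below that limit. The 5 genes with the smallest p on the positive side were Ankrd37, Fbln5, Csf1, Cdh5 and Slc25a30. Cdh5, the adherens junction protein VE-cadherin, had 18, 5 and 26 UMIs in PHD1-/- and 15, 3 and 1 UMIs in PHD1+/+ libraries. In CPM these were 172, 540.2 and 426 in PHD1-/- and 78.7, 88 and 124 in PHD1+/+ libraries. The libraries did not overlap, but the 124 CPM rested on 1 UMI. Cdh5 was not among the 978 genes whose share without overlap is given above. The genotype difference of Cdh5 was 2.09 ± 0.60 higher (log2, SE) in endothelial nuclei than in all other nuclei, with an adjusted p of 1.00 by edgeR. Ankrd37, a known HIF target, had 13, 0 and 8 UMIs in the PHD1-/- libraries and 3, 0 and 0 UMIs in the PHD1+/+ libraries. Fbln5, an elastic fibre protein of arteries, had 19, 0 and 5 UMIs in the PHD1-/- libraries and 6, 0 and 0 UMIs in the PHD1+/+ libraries. Csf1, the growth factor of macrophages, had 9, 0 and 8 UMIs in the PHD1-/- libraries and 1, 0 and 0 UMIs in the PHD1+/+ libraries. Slc25a30 had 2, 0 and 6 UMIs in the PHD1-/- libraries and 0, 0 and 0 UMIs in the PHD1+/+ libraries, so its zeros include the library with the most endothelial nuclei.

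On the negative side stood Ptprc, Hpgds, Fgd2, Slc6a11 and Itgb5, all with 0 UMIs in the endothelial nuclei of the PHD1-/- libraries. Ptprc, the leukocyte antigen CD45, had 11, 11 and 0 UMIs in the PHD1+/+ libraries. Hpgds, a prostaglandin D synthase of microglia and other immune cells, had 11, 5 and 0 UMIs there, and Slc6a11, the GABA carrier of astrocytes, 13, 1 and 1 UMIs. The microglia and astrocyte sums given above moved with these genes, with 829 and 2260 CPM of microglia genes in PHD1+/+ replicates 1 and 2. Ptprc is itself on the microglia list, so its UMIs are part of that sum. The part of microglia and astrocyte RNA in these counts was not tested. Without PHD1-/- replicate 1 edgeR's test called 4 of 17538 genes tested, Gm5724, Cdh5, Tbx1 and Dipk2b, all higher. PHD1-/- replicates 2 and 3 alone then stood for their genotype, and replicate 2 had 8 endothelial nuclei with 9256 UMIs. Every other omission of 1 library called 0.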

How the data were processed

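Nuclei of 6 droplet 3' libraries were profiled. The deposited values are raw UMI counts per gene and barcode, which the authors made with Cell Ranger 5.0.1 according to the headers. A different release, 5.0.2, stands in the submitters' processing notes beside Scanpy 1.8.1 and the build mm10. The treatment of intronic reads is not stated in these sources. The files held 32285 genes, and 5361 to 9155 nuclei per library passed the limits of 500 UMIs and 5% mitochondrial UMIs, with 14097714 to 33684686 UMIs. Nuclei were put into classes from these counts with the gates given in the report.

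Sums of counts over the nuclei of a class in each library entered edgeR 4.0.16 (TMM, filterByExpr, quasi-likelihood test, Benjamini-Hochberg over all genes tested, threshold 0.05). As an alternative they entered DESeq2 1.42.0, both in R 4.3.3. The edgeR fits of the genotype difference and of the interaction were tested on simulated counts, which held no difference between replicate numbers. The DESeq2 fits were not tested in this way. Shares and Egln2 were compared by exact permutation over libraries. Intervals and floors of 3 UMIs cover counting error only. The labels name littermate pairs without saying which libraries pair; over 978 genes, deviations from the group means correlated at 0.690, 0.120 and 0.199 between libraries with the same replicate number, all above 0.1, and the number was therefore also used as a block. PHD1-/- replicate 3 correlated more strongly with PHD1+/+ replicate 2 (0.413) than with its own number, and PHD1-/- replicate 2 with PHD1+/+ replicate 3 (0.157). Nothing says that the libraries of a genotype are more than separate samples, so p-values measure the spread between them.

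Members, gene lists and tests were chosen with earlier results of these data known. Named genes were the 7 markers, Egln2, the 20 leading genes, the 10 per direction (5 in the interaction) with the smallest p, and the 4 tested members with the highest counts of each pathway, segment and quality list; further list members named for background were chosen after their values were seen. Alternatives were other normalization and filters, other gates (2 or 4 markers, 1000 UMIs, further nuclei removed), each library left out, and, added after seeing the data, the libraries with at least 20 endothelial nuclei. Of the 51 interferon and antigen presentation genes listed, 2 were not analysed here.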

Additional observations from a re-analysis of the deposited data

How the results depend on the processing

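The count of genes called between the genotypes in endothelial nuclei was 0 under every alternative run, also with the replicate block. The count of genes whose genotype difference departed from that in all other nuclei was 0 under every alternative but 1. Leaving out a library gave 0 to 4, the 4 of 17538 genes tested without PHD1-/- replicate 1, and the cause was not tested. The difference in endothelial share, -0.124 percentage points, ran from -0.454 to 0.465 points when a library was left out, and turned to 0.147 points over replicates 2 and 3 only and to 0.111 points over nuclei with at least 1000 UMIs. The Egln2 difference, -12.0 CPM, ran from -20.8 to 5.46 CPM when a library was left out and turned to 8.19 CPM over replicates 2 and 3 only. With the replicate block, the exact test within same-numbered pairs gave p = 0.75 for the share and p = 1 for Egln2, and the block changed no call.

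Of the genes named for their small p, 24 kept their sign in all 318 fold changes recomputed. They were picked by p in these same libraries, so a kept sign follows largely from that choice and carries no test. Slc25a30, Ptprc, Hpgds, Fgd2, Slc6a11 and Itgb5, with 0 UMIs in 1 genotype, were not in this count. Of 303 list medians 30 turned sign, in 14 of 19 lists, and 13 moved by more than the spread between libraries. List members that failed a setting's filter were not in its median, so the genes compared were not always the same. For 21 further list members with a printed fold change, 23 of 304 values turned sign. On the log2 scale, Abcb1a turned to 0.12 with at least 2 markers, 0.21 with no filter, 0.079 over nuclei with at least 1000 UMIs, 0.040 with the replicate block and 0.22 over libraries with at least 20 endothelial nuclei. Nrp1 turned to -0.036 over nuclei with at least 1000 UMIs and to -0.12 with the replicate block, Lef1 to -0.072 with further nuclei left out, Sp100 to -0.10 with at least 4 markers and Vwf to -0.089 over replicates 2 and 3 only. When a library was left out, Abcb1a ran from -0.40 to 0.25, B2m from -1.05 to 1.78, Epas1 from -0.027 to 0.86, Lef1 from -0.14 to 0.62, Mal from -0.082 to 0.50, Nrp1 from -0.072 to 0.39, Slc2a1 from -0.044 to 0.59 and Sp100 from -0.24 to 0.58. Of 316 levels under other gates, 3 moved by more than the spread between libraries, for Itm2a and Magi1. Both libraries with 8 endothelial nuclei limit single genes, since 3 UMIs there stand for 324 CPM in PHD1-/- replicate 2 and 371 CPM in PHD1+/+ replicate 3.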

Other observations

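The number of the 7 gate markers held by a member differed between libraries, as did depth, and these values carry no test because the gate used the same genes. At least 6 markers were held by 28 of 87, 5 of 8 and 19 of 38 nuclei in the PHD1-/- libraries and by 22 of 182, 9 of 23 and 1 of 8 nuclei in the PHD1+/+ libraries. The median depth of these members was 924, 1194 and 1358 UMIs in the PHD1-/- libraries and 746, 1222 and 956 UMIs in the PHD1+/+ libraries. After thinning the nuclei with at least 1000 UMIs to that depth, at least 6 markers were held by 8 of 40, 3 of 6 and 10 of 29 nuclei in the PHD1-/- libraries and by 4 of 57, 2 of 12 and 0 of 3 nuclei in the PHD1+/+ libraries. The members with all 7 markers had a median of 1901 UMIs and held a median of 11 of the 21 further endothelial genes, and those with exactly 3 markers had a median of 771 UMIs and held 4.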
